A study of Mus musculus with 8 samples.

Results

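Hspa5, Hyou1, Hsp90b1, Calr, Pdia4, Pdia6, Dnajb11, Sdf2l1, Manf and Creld2 encode chaperones and folding factors of the endoplasmic reticulum (ER), and their counts of unique molecular identifiers (UMIs, 1 per captured RNA molecule) were described across the cell types of mouse dorsal skin and across 8 single-cell libraries. They are 10 of the 31053 genes counted. The genes were chosen by earlier results of these same counts by library, so their levels by treatment, library number and cell type are given as descriptions. Each symbol matched 1 counted gene.

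All libraries came from dorsal skin of female BALB/c mice aged 14 to 16 weeks. PBMCsec, the mixture of factors that irradiated mononuclear cells of peripheral blood release, had been injected subcutaneously before 4 of them were made, and a vehicle control before the other 4. Each group holds the library numbers 1, 2, 3 and 4. The labels name the vehicle no further and give neither a wound, a time point nor the meaning of a library number, and they do not say whether each library is 1 animal, so p-values measure only the spread between these libraries.

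Proteins that are secreted or sit in a membrane fold in the ER. When unfolded protein accumulates there, the sensors Ire1 (Ern1), Perk (Eif2ak3) and Atf6 start the unfolded protein response, in which the transcription factors Xbp1 and Atf6 raise the transcription of ER chaperones. In skin, fibroblasts (FBs) secrete large amounts of collagen and other matrix proteins, and plasma cells, glands and activated immune cells are further known users of this machinery.

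Hspa5 (BiP or Grp78, chr2:34771970-34777547, plus strand of GRCm38) is the Hsp70-type chaperone of the ER and holds the sensors inactive. Its partners are Hyou1 (Grp170, chr9:44379490-44392369, plus strand), a large Hsp70-related protein that helps Hspa5 to exchange nucleotide, Dnajb11 (ERdj3, chr16:22857845-22879634, plus strand), a co-chaperone that hands substrates to it, and Sdf2l1 (chr16:17130138-17132383, minus strand), which forms a complex with Dnajb11. Hsp90b1 (Grp94, chr10:86690209-86705509, minus strand) is the Hsp90 of the ER. Calr (calreticulin, chr8:84841850-84846934, minus strand) binds glycoproteins and calcium. Pdia4 (chr6:47796141-47813430, minus strand) and Pdia6 (chr12:17266545-17284770, plus strand) are protein disulfide isomerases. Manf (chr9:106838312-106891979, minus strand) and Creld2 (chr15:88819646-88826683, plus strand) are small ER proteins that can be secreted under stress. Positions are those of the GENCODE M21 annotation.

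RefSeq promoters of GRCm38.p6, from 250 bases before to 50 after the start, were at hand for 8 of the 10 genes, all but Hyou1 and Manf. The 250 bases before the start were searched on both strands for the ER stress response element, which is CCAAT and CCACG with 9 bases of any kind between them and is known to bind NF-Y together with Atf6 or Xbp1. It was found in 5 of these 8 promoters (Hspa5, Hsp90b1, Calr, Pdia6 and Creld2) and in 37 of all 32851 promoters (0.113%). The Hsp90b1 promoter held 2 of them and was the only one of the 32851 with more than 1. The stretches are printed because these letters are what 5 of the 8 promoters share, each 5′ to 3′ on the gene's strand with the fixed letters of the element in capitals, and CGTGG with ATTGG marks an element on the opposite strand.
Hspa5, chr2:34772020-34772048, plus strand: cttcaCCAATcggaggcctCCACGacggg
Hsp90b1, chr10:86705633-86705661, minus strand: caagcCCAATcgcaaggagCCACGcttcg
Hsp90b1, chr10:86705528-86705556, minus strand: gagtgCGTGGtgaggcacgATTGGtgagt
Calr, chr8:84847070-84847098, minus strand: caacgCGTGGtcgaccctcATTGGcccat
Pdia6, chr12:17266486-17266514, plus strand: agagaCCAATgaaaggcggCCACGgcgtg
Creld2, chr15:88819515-88819543, plus strand: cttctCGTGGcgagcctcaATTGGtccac

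The elements began between 212 and 65 bases before the RefSeq start. The Hspa5 stretch lies in an Hspa5 exon of GENCODE M21, where the gene begins further upstream, and the other stretches overlap no annotated exon. Of the letters that overlap with the element, CCAAT alone was found in all 8 promoters and in 33.85% of all promoters, and CCACG alone in 6 of the 8 and in 28.3% of all. The promoters of Pdia4, Dnajb11 and Sdf2l1 held CCAAT without the full element. The shorter element ATTGG and CCACG with 1 base between them (0.0304% of all promoters), the Xbp1 motif TGACGTGG (0.563%), the cAMP response element TGACGTCA (1.55%) and the heat shock element of GAA, TTC and GAA with 2 bases between each (0.466%) were in 0 of the 8. A match describes the letters of this window only.

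The libraries held between 14753926 and 37880651 UMIs. Of 26231 barcodes 6150 were kept, between 10.2% and 32.9% of a library, and 16900 were over the mitochondrial limit of 5%. Between 151 and 1659 cells were kept per library, with a median of 6156 to 9521 UMIs per cell. In all, 156 barcodes occurred in more than 1 library, and 8 kept cells carried a barcode that was kept in more than 1. The cells fell into 36 clusters, and markers gave a name to 29: FBs (1481 cells), keratinocytes (KCs, 1226), hair follicle cells (HFs, 909), T and B cells (TCs, 748), dendritic cells and macrophages (DCs and macrophages, 518), and smaller classes. All names mean "like" these types, and 15.2% of the cells were left unnamed. Each named cluster had at least 3 of the markers of its type in at least 25% of its cells at 2-fold or more.

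In all classes with cells enough for a value, all or most of the 10 genes were detected, and FBs had the highest mean level. The level is the number of UMIs of a gene per 1000000 UMIs of the summed cells of a class in a library (CPM). Summed over the 10 genes, it was 3681 ± 1633 CPM (SD, n = 8 libraries) in FBs, 2849.5 ± 627 (n = 8) in DCs and macrophages and 2776 ± 613 (n = 8) in TCs. It was 2442 ± 1011 (n = 5) in melanocytes, 2270.4 ± 929 (n = 7) in HFs, 2114 ± 941 (n = 6) in endothelial cells (ECs) and 1550.5 ± 430.1 (n = 7) in KCs. Neutrophils were lowest with 967 ± 405 (n = 4). Libraries with under 10 cells of a class gave no value. Smooth muscle cells and pericytes (SMCs/PCs) had enough cells in 1 library, with 1672 CPM, and mast cells and basophils in none.

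Within single libraries, FBs were above KCs in 7 of 7 and above HFs in 7 of 7. Against the sum of KCs and HFs, the epithelial cells, FBs were higher in 8 of 8 libraries, by 0.94 ± 0.20 on the log2 scale (SD, n = 8). FBs were above TCs in 7 of 8 libraries (log2 ratio 0.32 ± 0.36) and above DCs and macrophages in 7 of 8 (0.29 ± 0.35), differences smaller than their spread. DCs and macrophages were above TCs in 4 of 8 (0.03 ± 0.21). HFs were above KCs in 7 of 7 (0.50 ± 0.29).

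The genes did not share 1 order of cell classes. Hsp90b1, whose clients include integrins and Toll-like receptors, was higher in FBs (943 ± 272 CPM, SD, n = 8) than in TCs (573 ± 149), DCs and macrophages (639.7 ± 147) and epithelial cells (327 ± 96.0) in 8 of 8 libraries each. Sdf2l1, the partner of Dnajb11, was highest in DCs and macrophages (102 ± 27.8 CPM), above FBs (50.9 ± 31.3) in 8 of 8 libraries and above epithelial cells (16.8 ± 5.4) in 8 of 8. Its level there exceeded that in TCs (65.7 ± 31.3) in 6 of 8 libraries. Pdia6 was higher in FBs (333 ± 127) than in TCs (167 ± 48.6) in 8 of 8 libraries. Pdia4, the other disulfide isomerase, was higher in TCs (87.7 ± 19.8) than in DCs and macrophages (58.3 ± 23.0) in 8 of 8. Hspa5 was close in FBs (1019.8 ± 726) and TCs (959 ± 389), with FBs higher in 3 of 8 libraries.

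Among the 36 clusters the summed level, pooled over libraries that held unequal shares of each cluster, ranged from 909 to 5521 CPM. The highest pooled level was that of a TC cluster of 93 cells with Trdc, Blk, Tcrg-C2 and Cxcr6 among its leading genes. In these pooled values, 7 of the 10 genes were highest in this cluster, and all 10 were highest or second there, with Hspa5 at 1742 CPM, Hsp90b1 at 1223, Manf at 578 and Sdf2l1 at 218. A second TC cluster with Trdc, Cd7 and Prf1 among its leading genes had 3927 CPM, and the largest TC cluster had 1696. The order of both Trdc clusters turned between libraries: in PBMCsec library 3 the second was higher (4976 against 3752.5 CPM), and in vehicle library 3 the first (3319 against 2709.9 CPM). An FB cluster with Mgp, Angptl1 and Igf1 among its leading genes had 3976 CPM when pooled, with 68 of its 232 cells from PBMCsec libraries 1 and 2. It was the highest FB cluster in 0 of the 6 libraries with at least 10 of its cells. Macrophages with C1qa, C1qb and Ccl8 had a pooled level of 3687 CPM.

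At the lower end stood neutrophils and the upper epidermis. The neutrophil cluster (S100a8, S100a9 and Csf3r, 118 cells) had the lowest level of 8 of the 10 genes but kept Hspa5 at 668 CPM, close to the median of 686 over the clusters. Pdia4 and Sdf2l1 had 0 UMIs in it, which allows a level of up to 14.7 CPM (3 counts) in 203455 UMIs, against medians over the clusters of 70.1 and 26.1 CPM. A KC cluster with Krt1, Krt10 and Krtdap had 1009 CPM, the second lowest, and a KC cluster with Krt6a and Fabp5 had the lowest Hspa5, 255 CPM.

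**Figure D1:**
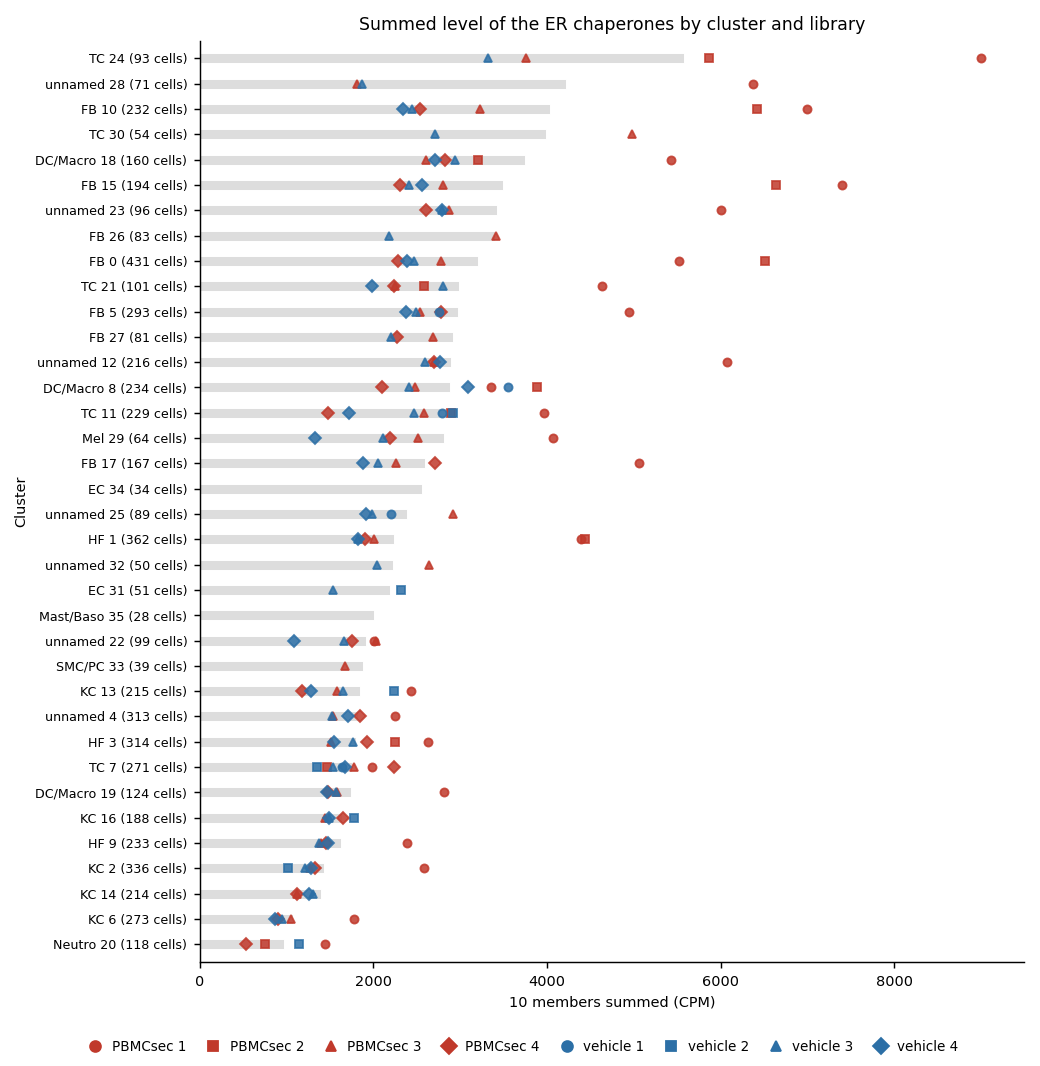
The horizontal axis gives the summed level of the 10 ER chaperones in CPM and each row is 1 cluster with its number of cells; grey bars show the cluster over all libraries, and points show single libraries with at least 10 of its cells (red PBMCsec, blue vehicle, shapes for the library number). The bars fall from 5521 to 909 CPM. In 25 clusters PBMCsec library 1 or 2 (red circles and squares) could be compared with another library. Those of the 2 that were present are the highest points in 19 of the 25, but in 3 of the 7 where vehicle library 1 or 2 was among the others. In many of the 25, including all KC clusters compared, only PBMCsec library 1 of the 2 had at least 10 cells.

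With each cell thinned to 1000 UMIs, so that depth is equal, Hspa5 was found in 43.2% of FBs (95% Wilson interval 40.7 to 45.8, 1478 cells), in 46.2% of TCs (42.7 to 49.8, 742 cells) and in 31.9% of epithelial cells (29.9 to 33.9, 2084 cells). Without thinning these shares were 93.0%, 74.1% and 84.3%, at median depths of 8997, 3312.5 and 10071 UMIs. Hsp90b1 was found in 53.1% of thinned FBs, 38.0% of TCs, 23.4% of epithelial cells and 6.25% of neutrophils. Neutrophils, at a median of 1506 UMIs, are the class with the lowest summed level here and were not used as a background. Intervals cover counting error only.

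In FBs, all 10 genes had a higher mean level after PBMCsec than after vehicle, with a wide spread between the PBMCsec libraries. PBMCsec libraries 1 to 4 held 170, 68, 520 and 150 FBs and vehicle libraries 1 to 4 held 28, 21, 360 and 164. The summed level was 6048, 6383, 2808 and 2518 CPM in PBMCsec libraries 1 to 4 and 3503, 3507, 2373 and 2309 CPM in vehicle libraries 1 to 4. PBMCsec libraries 1 and 2 were the highest, vehicle libraries 1 and 2 came next, and the 4 libraries numbered 3 and 4 lay lowest in both groups. The means were 4439 ± 2059 and 2923 ± 673 (SD, n = 4 each), so the groups overlapped.

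Hspa5, the central chaperone, was at 2253, 1988, 707 and 393 CPM in the FBs of PBMCsec libraries 1 to 4 and at 1109, 856, 457 and 396 CPM in those of vehicle. Its partner Hyou1 was at 69.8, 83.3, 28.3 and 28.2 CPM after PBMCsec and at 64.0, 23.8, 25.8 and 20.9 after vehicle. Vehicle library 1 stood with PBMCsec libraries 1 and 2 for Hyou1, and the other 5 libraries lay close together.

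Dnajb11, which hands substrates to Hspa5, was at 96.3, 152, 55.4 and 73.1 CPM after PBMCsec and at 59.7, 41.6, 71.4 and 56.4 after vehicle. Sdf2l1 was at 74.0, 118, 35.4 and 35.3 CPM and at 55.5, 35.7, 27.2 and 26.5 CPM in the same order. Only the PBMCsec libraries 1 and 2 stood out for Dnajb11. For Sdf2l1 the libraries numbered 1 and 2 of both groups were above all numbered 3 and 4. Vehicle library 2 (35.7 CPM, 21 FBs) was only just above PBMCsec library 3 (35.4 CPM).

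Hsp90b1 was at 1369, 1229, 833 and 670.3 CPM after PBMCsec and at 1028, 1064, 666 and 682 CPM after vehicle. Calr was at 908, 1089, 606 and 706 CPM after PBMCsec and between 571 and 619 CPM in the 4 vehicle libraries. The vehicle libraries were nearly alike for Calr and split by number for Hsp90b1.

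The disulfide isomerase Pdia4 was at 144, 175, 84.3 and 65.4 CPM after PBMCsec and at 128, 41.6, 81.3 and 71.7 CPM after vehicle. Pdia6 was at 387, 575, 254 and 269 CPM and at 226, 458, 249.8 and 250.01 CPM in the same order. It was the 1 gene of the 10 whose 2 highest FB libraries were not PBMCsec 1 and 2, since vehicle library 2 stood between them. For the other 9, PBMCsec 1 and 2 were the highest, as they were for 4.04% of all FB genes tested.

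Manf, the first of the factors that can be secreted, was at 622, 802, 174 and 247 CPM after PBMCsec and at 171, 309, 157 and 199 CPM after vehicle, and Creld2 at 124, 173, 30.9 and 30.8 CPM and at 42.7, 59.4, 21.9 and 35.5 CPM. Among libraries numbered 1 and 2, the mean after PBMCsec was 2.97 times that after vehicle for Manf, 2.91 times for Creld2, 2.45 times for Dnajb11, 2.16 times for Hspa5 and 1.24 times for Hsp90b1. Among libraries numbered 3 and 4, these ratios were 1.18, 1.07, 1.01, 1.29 and 1.12. For the other members the ratios ran from 1.41 (Pdia6) to 2.10 (Sdf2l1) among libraries numbered 1 and 2. Among those numbered 3 and 4 they ran from 0.98 (Pdia4) to 1.32 (Sdf2l1). Vehicle libraries 1 and 2 held 28 and 21 FBs.

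**Figure D2:**
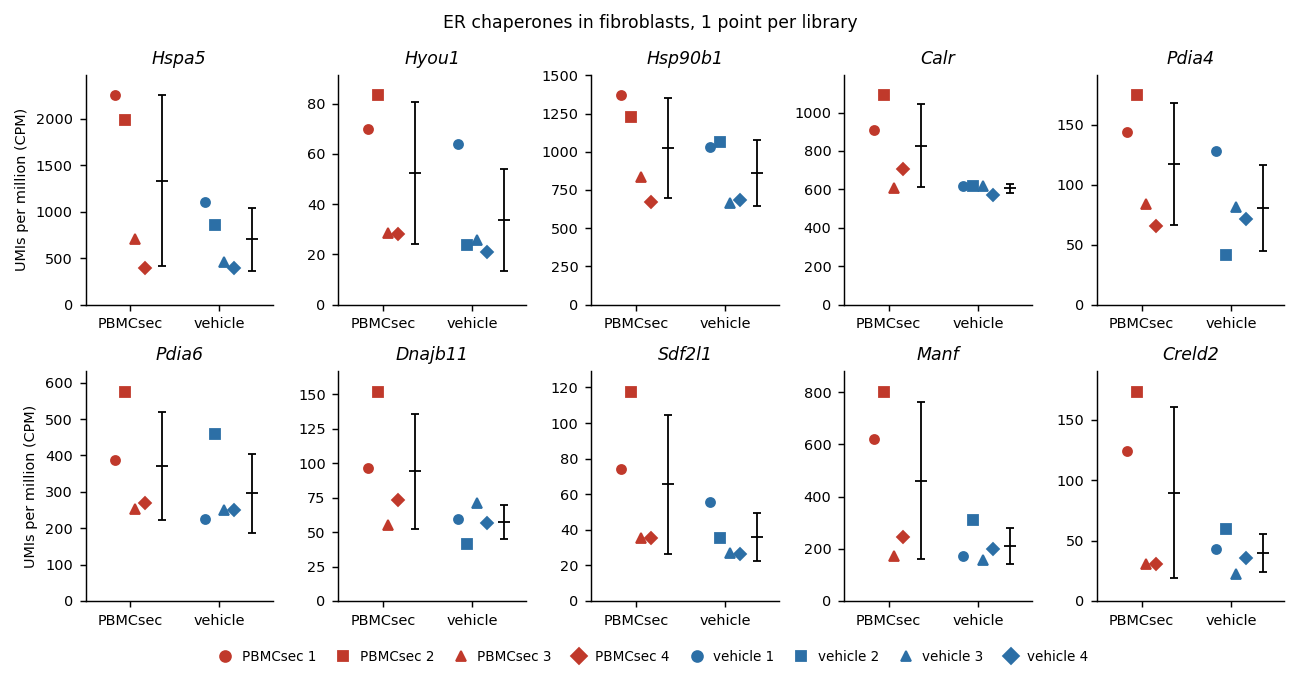
Each panel plots the CPM of 1 ER chaperone in FBs on an axis from 0, with 1 point per library (red PBMCsec, blue vehicle, shapes for the library number) and the mean ± SD of the 4 libraries of a group at the right of its points. In 9 of the 10 panels PBMCsec libraries 1 and 2 are the 2 highest points, and PBMCsec libraries 3 and 4 lie nearer to vehicle libraries 3 and 4. In the panels of Hspa5, Hsp90b1, Sdf2l1 and Creld2, vehicle libraries 1 and 2 lie above all libraries numbered 3 and 4. For Sdf2l1 vehicle library 2 (35.7 CPM) is only just above PBMCsec library 3 (35.4 CPM).

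By treatment, edgeR called none of the 10 genes in FBs and 0 of 9390 genes (0%) at an adjusted p under 0.05. The log2 fold changes, PBMCsec minus vehicle, were positive for 10 of 10 genes, with a median of 0.77 beside a median of 0.01 over all genes tested. They were highest for Creld2 (1.39, SE 0.58), Manf (1.21, SE 0.45) and Sdf2l1 (1.03, SE 0.42), each with an adjusted p of 0.99999 by edgeR. At an unadjusted p under 0.05, 5 of the 10 were higher (Calr, Dnajb11, Sdf2l1, Manf and Creld2), where 1.31% of all FB genes were higher and 1.06% lower. This count was 0 without PBMCsec library 1, 0 without PBMCsec library 2, and 1 without vehicle library 3 or 4. It was 7 without PBMCsec library 3 and 8 without PBMCsec library 4. DESeq2 called 0 FB genes. None of the 10 genes separated the PBMCsec from the vehicle FB libraries without overlap, as 0.383% of FB genes did in this direction.

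The difference was read in each pair of library numbers as well, and leaving out 1 library gave medians between 0.50 and 0.99. With the libraries numbered 1 and 2 only, the median over the 10 genes was 0.99 on the log2 scale, and with those numbered 3 and 4 only it was 0.24, with 0 of the 10 called in either. With the number as a block, the median was 0.50 and 0 FB genes were called. A term for the difference of the treatment effect between both number pairs was negative for 10 of 10 genes (median -0.63) and called none of them. The lowest adjusted p of a member in that edgeR fit was 0.70, for Creld2 (-1.37, SE 0.51), and it called 1 of 9390 FB genes (0.0106%).

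By library number, 3 and 4 minus 1 and 2 with the treatment in the model, all 10 genes were lower in FBs, with a median of -0.95 beside -0.01 over all genes. Of the 10, edgeR called 4 lower: Hspa5 (-1.61, SE 0.24, adjusted p = 0.019), Creld2 (-1.76, SE 0.31, adjusted p = 0.028), Hyou1 (-1.28, SE 0.24, adjusted p = 0.036) and Sdf2l1 (-1.21, SE 0.23, adjusted p = 0.042). Over all FB genes 0.522% were called and 0.351% were called lower, and since the number split was known from earlier results of these counts, nothing is read from the members' count beside it. The call rested on all 8 libraries: without PBMCsec library 1, 0 of the 10 were called, and without any other single library 1 or 2. The median was -1.25 in the PBMCsec libraries alone and -0.59 in the vehicle libraries alone. Of the 10 genes, 4 (Hspa5, Hsp90b1, Sdf2l1 and Creld2) had all FB libraries numbered 1 and 2 above all numbered 3 and 4, as had 2.86% of FB genes. For Sdf2l1 the gap was narrow, 35.7 CPM in vehicle library 2 against 35.4 in PBMCsec library 3. Sdf2l1 and Creld2 had 549 and 637 UMIs over all FBs, and vehicle libraries 1 and 2 held 28 and 21 FBs.

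The order of libraries was also read within clusters. In 5 FB clusters a PBMCsec library 1 or 2 had at least 10 cells beside other libraries, and in 5 of 5 it lay above every other library. In the largest, of 431 FBs, the summed level was 5519 and 6510 CPM in PBMCsec libraries 1 and 2 and between 2277 and 2776 CPM in the 4 libraries numbered 3 and 4. Vehicle libraries 1 and 2 had too few FBs for this except in 1 cluster, where vehicle library 1 had 2752 CPM and PBMCsec library 1 had 4940 CPM. Over all clusters this order held in 19 of 25, with 6 of 6 epithelial but 1 of 4 TC clusters among them. In many of the 25, including all KC clusters compared, only PBMCsec library 1 of the 2 had at least 10 cells. Where vehicle library 1 or 2 also had at least 10 cells the order held in 3 of 7 clusters, and in 16 of the 18 without them. In the HF cluster of 362 cells the levels were 4390.0 and 4439 CPM in PBMCsec libraries 1 and 2 and between 1817 and 2003 CPM in the others. In the TC cluster with Trdc and Blk they were 9003 and 5861 CPM, against 3753 in PBMCsec library 3 and 3319 in vehicle library 3. In the other TC clusters PBMCsec library 4 (2241 CPM), vehicle library 2 (2916 CPM) or vehicle library 3 (2802 CPM) lay above PBMCsec library 2 (1461, 2890.5 and 2577 CPM).

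The number of chaperone UMIs per FB was also counted. After thinning to 1000 UMIs, the median FB held 5 and 6 UMIs of the 10 genes in PBMCsec libraries 1 and 2, 2.5 in vehicle library 1 and 2 in each of the other 5 libraries. At least 5 such UMIs were found in 53.0% of the FBs of PBMCsec library 1 (95% Wilson interval 45.4 to 60.4) and 57.4% of library 2 (45.5 to 68.4), but in 17.0% (14 to 20.4) and 13.3% (8.80 to 19.7) of libraries 3 and 4. After vehicle the shares were 32.1% (17.9 to 50.7), 28.6% (13.8 to 50), 9.17% (6.60 to 12.6) and 9.15% (5.62 to 14.5) in libraries 1 to 4. The intervals of vehicle libraries 1 and 2 rest on 28 and 21 FBs and overlap those of PBMCsec libraries 1 and 2. FBs with 0 of these UMIs made up 2.38% and 1.47% of PBMCsec libraries 1 and 2 and between 4.76% and 12.5% of the other libraries.

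**Figure D3:**
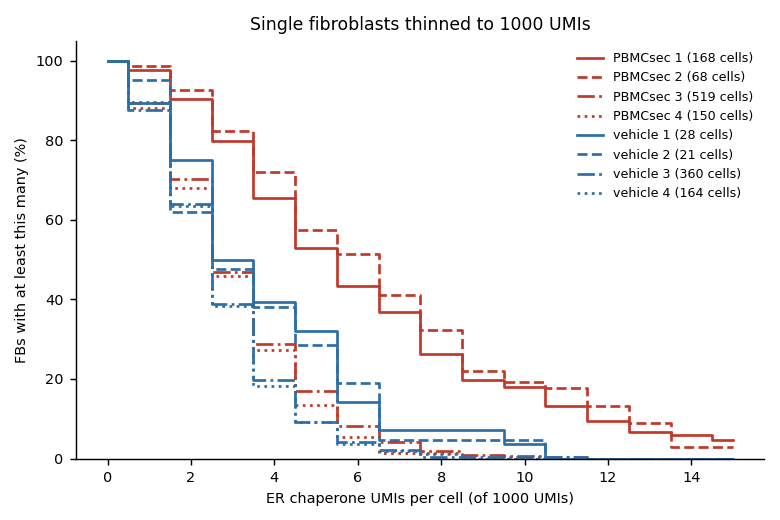
The horizontal axis gives the number of ER chaperone UMIs in a FB thinned to 1000 UMIs, and the vertical axis the percentage of FBs of a library with at least that number (red PBMCsec, blue vehicle, line styles for the library number). The curves of PBMCsec libraries 1 and 2 lie above the others, with 53.0% and 57.4% of FBs at 5 or more UMIs.

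In epithelial cells, KCs and HFs summed together, the fitted log2 fold changes by treatment were positive for 10 of 10 genes, with a median of 0.40 beside 0.02 over all genes and of 0.26 without PBMCsec library 2. Hyou1 had a fitted value of 0.23 (SE 0.34), although its mean CPM was lower after PBMCsec (25.4 ± 7.97) than after vehicle (26.8 ± 13.7; SD, n = 4 each). The summed level was 2769 and 2732 CPM in PBMCsec libraries 1 and 2, 1365 and 1538 in libraries 3 and 4, and 1847, 1718, 1485 and 1325 CPM in vehicle libraries 1 to 4. The highest fold change was that of Calr (0.67, SE 0.27), at 630.0 and 783 CPM in PBMCsec libraries 1 and 2 and between 278 and 457 CPM in the other 6. By treatment edgeR called 0 of 10099 genes (0%), with 91 higher, 1 of the 10 among them, and 44 lower at an unadjusted p under 0.05. DESeq2 called 2 genes, none of the 10. By number edgeR called 0 of the 10 where 0.129% of genes were called. Vehicle library 1 had 11 epithelial cells.

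HFs and KCs were also summed apart. In HFs the summed level was 3589 and 3659.6 CPM in PBMCsec libraries 1 and 2 and between 1593 and 1839 CPM in the other 5 libraries with cells enough. In KCs it was 2392 and 1741 CPM against 1187 to 1683 CPM. Hspa5 in HFs was at 1289.6 and 1074 CPM in PBMCsec libraries 1 and 2 and between 319 and 401 CPM elsewhere. In KCs Hspa5 did not follow this order, with 998 CPM in PBMCsec library 1 but 318 in library 2, below vehicle library 2 (778), PBMCsec library 3 (467) and vehicle library 3 (362). PBMCsec library 2 held 22 KCs and vehicle library 2 held 40. Of these 40, 14 lay in a KC cluster with Serpinb2 and Fosl1 among its leading genes, with Hspa5 at 1355 CPM there. The part of the mix of KC clusters in this order was not tested.

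In TCs, 9 of the 10 genes were positive by treatment, with a median of 0.42 beside -0.01 over all genes and of 0.27 without PBMCsec library 1. The summed level was 4122, 3133, 2723 and 2390.1 CPM after PBMCsec and 2624, 2614, 2441 and 2161 CPM after vehicle. Calr, the glycoprotein chaperone, was between 547 and 633 CPM after PBMCsec and between 465 and 499.4 after vehicle, without overlap, as 0.775% of TC genes were in this direction. Its log2 fold change was 0.35 (SE 0.18). By treatment edgeR called 0 of 4389 TC genes (0%), with 82 higher, 1 of the 10 among them, and 61 lower at an unadjusted p under 0.05. DESeq2 called 3 genes, none of the 10. Libraries of equal number were treated as pairs in TCs, though the labels name no pairs, and the summed level was higher after PBMCsec in 4 of 4 pairs. By equal numbers it was also higher in 4 of 4 in FBs and in 3 of 4 in epithelial cells and in DCs and macrophages. In these classes the numbers were not treated as pairs. With the number as a block edgeR called 5 genes, none of the 10. By number 0 of the 10 were called, where 2.21% of TC genes were.

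In DCs and macrophages 6 of the 10 genes had a positive and 4 a negative log2 fold change by treatment, with a median of 0.08 beside -0.02 over all genes, and edgeR called 0 of 5591 genes (0%), with 147 higher and 114 lower at an unadjusted p under 0.05 and 7 called by DESeq2, none of the 10. Without PBMCsec library 1 the median was -0.10. The summed level was 3943 and 3273 CPM in PBMCsec libraries 1 and 2 and 3229.5 and 3066 CPM in vehicle libraries 1 and 2, and it lay between 2212 and 2552 CPM in the libraries numbered 3 and 4. Dnajb11 was lower after PBMCsec in each library, between 64.4 and 68.8 CPM against 75.1 to 83.3, at a log2 fold change of -0.24 (SE 0.22). Such a separation in either direction was found for 2.72% of the genes of this class, and here it rested on few counts. Dnajb11 had 278 UMIs in this class over the 8 libraries, and vehicle libraries 1 and 2 held 24 and 15 of its cells. By number 9 of the 10 were lower, with a median of -0.48, and 0 were called where 1.09% of genes were.

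**Figure D4:**
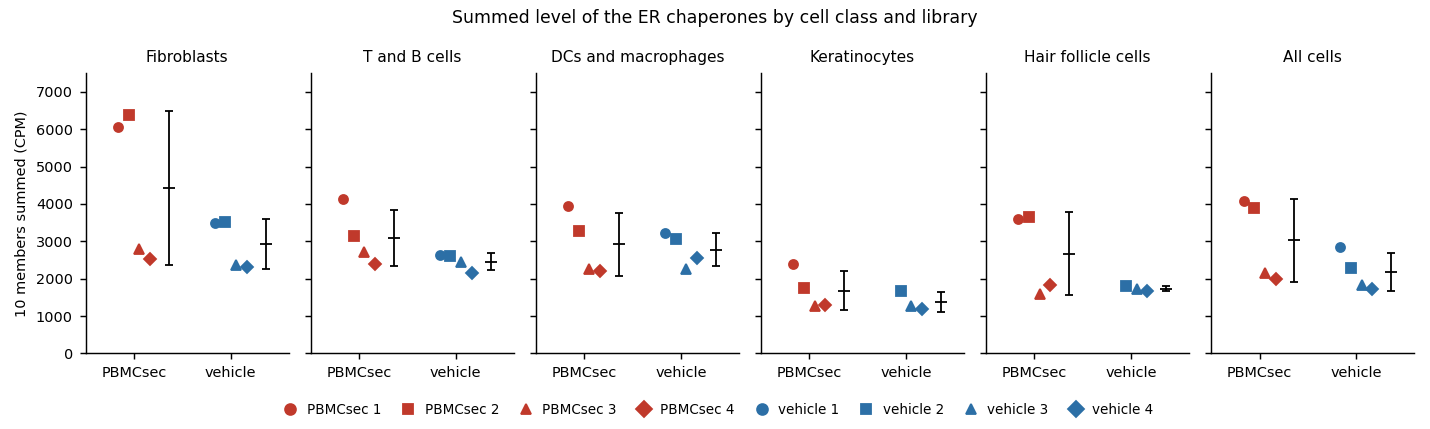
Each panel shows the summed level of the 10 ER chaperones in CPM (vertical axis from 0) in 1 cell class, with 1 point per library and the mean ± SD of each group beside the points; libraries with under 10 cells are left out. PBMCsec libraries 1 and 2 are the 2 highest points in each panel, among them FBs (6048 and 6383 CPM) and HFs (3589 and 3659.6 CPM). In DCs and macrophages vehicle libraries 1 and 2 lie close to them. In KCs vehicle library 2 (1683 CPM) lies close to PBMCsec library 2 (1741 CPM). KCs and HFs have no value for vehicle library 1.

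Summed over all kept cells, the level was 4085, 3885, 2151 and 1987 CPM after PBMCsec and 2858, 2279, 1842 and 1736 CPM after vehicle, and in this sum fewer cells of a type and less RNA per cell cannot be told apart. All 10 genes were highest in PBMCsec libraries 1 and 2, as were 2.88% of the genes tested in all cells. Libraries of equal number were treated as pairs here too, with a higher level after PBMCsec in 4 of 4 pairs. The median by treatment was 0.49 and edgeR called 0 of 13182 genes (0%), with 260 higher and 75 lower at an unadjusted p under 0.05. DESeq2 called 8 genes, none of the 10. Of the 10, 4 were higher at an unadjusted p under 0.05, where 1.97% of genes were. With the number as a block they were 7, where 393 of 13182 genes were higher and 130 lower at this threshold, and 0 genes were called. The 4 became 0 without PBMCsec library 1 or 2 or vehicle library 2 or 3, and 1 without vehicle library 4. They became 6 without PBMCsec library 3 and 7 without PBMCsec library 4. By number 5 of the 10 were called lower (Hspa5, Hyou1, Hsp90b1, Pdia4 and Sdf2l1), where 11.3% of genes were called and 7.46% called lower. Without any cell filter, over all 26231 barcodes, the level was 3851 and 3424 CPM in PBMCsec libraries 1 and 2 and between 1809 and 2413 CPM in the other 6.

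**Figure D5:**
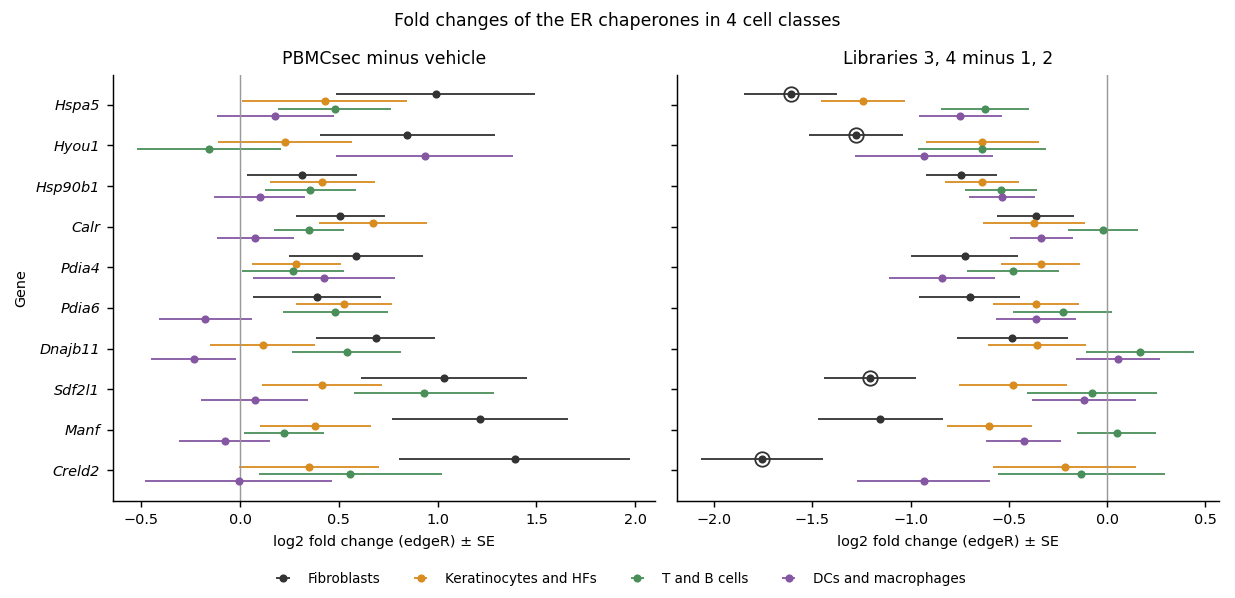
Points give edgeR's log2 fold change ± SE (horizontal axis) of each ER chaperone (rows) in 4 cell classes, on the left PBMCsec minus vehicle and on the right libraries 3 and 4 minus 1 and 2, and rings mark genes called at an adjusted p under 0.05. On the left the FB points are all above 0 and none is ringed; on the right the 4 ringed points are Hspa5, Hyou1, Sdf2l1 and Creld2 in FBs.

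Other genes of the pathway had smaller median differences in FBs. Of 27 other ER chaperones and folding enzymes tested, 17 had a positive log2 fold change by treatment (median 0.12) and 0 were called. Pdia3, the isomerase that works with calreticulin, was at 567 ± 150.0 CPM (SD, n = 8; log2 fold change 0.45, SE 0.24), and the cyclophilin Ppib at 649 ± 129.7 (0.36, SE 0.23). Collagen folding and hydroxylation genes had 4 of 13 positive with a median of -0.09. The collagen chaperone Serpinh1 was at 1070.0 ± 302 CPM (0.59, SE 0.24), and the lysyl hydroxylase Plod2 was at 644 and 363 CPM in vehicle libraries 1 and 2 and between 61.3 and 170 CPM in the other 6 libraries.

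Among the sensors and transcription factors of the unfolded protein response, 11 of 16 were positive by treatment, with a median of 0.08. Xbp1 was at 164, 204, 102 and 106 CPM in the FBs of PBMCsec libraries 1 to 4 and at 107, 137, 101 and 107 CPM in those of vehicle (0.43, SE 0.27). Atf4, the factor downstream of Perk, was at 192 ± 64.8 CPM (0.11, SE 0.32). Atf3 was at 198 ± 147 CPM (-0.01, SE 0.60) and Ddit3 (CHOP) at 38.2 ± 17.6 CPM (0.48, SE 0.38). Targets of Atf4 and CHOP had 7 of 11 positive with a median of 0.26, among them Nupr1 (0.26, SE 0.25) and Vldlr (0.29, SE 0.44).

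ER-associated degradation, which removes misfolded proteins, had 12 of 16 positive by treatment (median 0.19), and translocation into the ER 17 of 21 (median 0.18), with 0 called in both. Vcp was at 203 ± 24.8 CPM (-0.06, SE 0.20), Selenos at 177 ± 51.0 (0.08, SE 0.29), Sec61g at 382 ± 84.9 (0.27, SE 0.26) and Sec62 at 321 ± 39.2 (0.14, SE 0.20). By number edgeR called 3 of the 16 degradation genes lower in FBs: Herpud1 (-1.21, SE 0.21, adjusted p = 0.028), Edem1 and Syvn1, where 0.351% of all FB genes were called lower. The 49 FB genes called by number fell to between 9 and 17 without PBMCsec library 1, PBMCsec library 4, vehicle library 3 or vehicle library 4, and to 23 and 31 without vehicle libraries 1 and 2. Dnajb9 was the 1 other ER chaperone called lower by number and P4ha1 the 1 gene of collagen folding. Edem1, Syvn1, Dnajb9 and P4ha1 are named after their values were seen.

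Cytosolic heat shock proteins, which fold proteins outside the ER, were the list with a median near that of the ER chaperones in FBs. They had 12 of 13 positive by treatment, a median of 0.79 and 0 called, with 9 higher at an unadjusted p under 0.05 where 1.31% of all FB genes were. Their summed level was 11213, 8536, 5378 and 3518 CPM after PBMCsec and 4071, 5836, 3432 and 2733 CPM after vehicle. Hspa8 was at 1968, 2091, 825 and 631 CPM and at 986, 1165, 536 and 537 CPM (0.83, SE 0.41 by treatment), and it was called lower by number (-1.27, SE 0.20, adjusted p = 0.019 by edgeR). Hsp90ab1 was at 1303 ± 491 CPM (0.67, SE 0.28). Outside FBs their median by treatment lay between 0.16 and 0.25. Of the immediate early genes, 10 of 13 had a negative log2 fold change by treatment in FBs (median -0.19, 0 called). Their sum was highest in vehicle libraries 1 and 2 (10578 and 11067 CPM, against 4693 to 8222 in the other 6). Fos was at 1095 ± 416 CPM (-0.39, SE 0.30) and Jun at 1030 ± 340.1 (0.02, SE 0.30). Both lists are known to respond to tissue dissociation, and their part in the level of the ER chaperones was not tested.

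Across the 36 clusters each of the 10 genes followed the mean of the other 9, with a Pearson correlation of log2 CPM between 0.60 for Hspa5 and 0.94 for Manf. Among 3432 genes at a mean of at least 50 CPM, the 10 most like the members' mean were Pdia3 (r = 0.93), Canx (0.86), Dnajc3 (0.80), Krtcap2 (0.79), Ddost (0.76), Sec61g (0.74), Rpn2 (0.74), Capn2 (0.73), Dad1 (0.72) and Sept11 (0.72). Pdia3, Canx and Dnajc3 encode ER folding factors, and Krtcap2, Ddost, Rpn2 and Dad1 subunits of the oligosaccharyltransferase, which adds glycans to proteins in the ER. The clusters share libraries and differ in depth, so these values are descriptions.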

How the data were processed

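The authors deposited UMI counts per gene and barcode of 8 libraries (10x Chromium 3′), made with Cell Ranger 3.0.2 on mm10 per the submitters' processing notes. No column was left unmapped. The cell filter kept barcodes with 500 to 4000 genes, no more than 20000 UMIs and a mitochondrial share up to 5%, and Gm42418, Gm17056 and Gm26917 were removed. Cells were integrated and clustered with Seurat 5.3.0 in R 4.3.3 (2000 variable features without the listed genes, 30 dimensions, resolution 1). Clusters were named by marker genes, and a non-epithelial name was refused where Krt5 and Krt14 together exceeded 1000 CPM. That refusal, the joint epithelial class (KCs had under 10 cells in 1 library), the fit over all barcodes, the interaction term and the count of called members were added after seeing the data. Scrublet marked only 18 cells (0.293%) and was not relied on, and removal of the 5% of cells with the highest doublet scores served as an alternative.

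Within each class the cells of a library were added up, and these sums entered edgeR 4.0.16 (quasi-likelihood, TMM, Benjamini-Hochberg adjusted p under 0.05 over all genes passing edgeR's expression filter), for treatment, and for library number beside a treatment term. All 10 members passed this filter in each class. FB sums held 168226 to 4660330 UMIs per library, TC sums 218699 to 572347 and those of DCs and macrophages 117718 to 934306. Except in the sum of all cells, Col1a1, Col1a2 and Col3a1 entered the FB fit only, and the keratin genes Krt1, Krt5, Krt10 and Krt14 with Krtdap the epithelial fit only. The test was checked on simulated counts. DESeq2 1.42.0 was an alternative, beside other normalization, filters, clustering resolution, doublet and mitochondrial limits, the replicate block and leaving out each library.

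The members and gene lists were chosen with earlier results of these data known. Named beside the members were the 2 genes of each other list with the highest mean level in FBs, Xbp1, Atf4, Ddit3 and Herpud1, and the 10 genes most correlated with the members across clusters.

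Whether equal numbers pair libraries was read from the correlation of their deviations from the group means. These were 0.33, 0.20, 0.17 and 0.39 for numbers 1 to 4 in TCs and 0.29, 0.30, 0.47 and 0.57 in all cells. All were above 0.1, and the numbers were treated as pairs there. For PBMCsec 1 with vehicle 2, 2 with 1, 3 with 4 and 4 with 3 they were 0.19, 0.15, -0.10 and 0.24 in TCs. In all cells these unequal numbers gave 0.19, 0.43, 0.31 and 0.51. The rule therefore cannot tell pairs of equal numbers from the split of 1 and 2 against 3 and 4.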

Additional observations from a re-analysis of the deposited data

Results flagged for a closer look

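For the 10 ER chaperones in FBs and for their sum in FBs, TCs, DCs and macrophages, epithelial cells and all cells, 30 groups of 4 libraries were examined for a library far from the others by Dixon's criterion, which flags about 1 group in 20 by chance. Hyou1 in vehicle FBs was at 64.0 CPM in library 1, against 20.9 to 25.8 CPM in the other 3. Calr in vehicle FBs was at 571 CPM in library 4, just below the 616 to 619 CPM of the other 3, which lay very close together. Pdia6 in vehicle FBs was at 458 CPM in library 2, against 226 to 250.01 CPM in the other 3. Vehicle libraries 1 and 2 held 28 and 21 FBs.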

How the results depend on the processing

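The members' median log2 fold change kept its sign under all alternatives by treatment and by number in FBs, epithelial cells and all cells. It changed sign in 3 of 18 alternatives by treatment in DCs and macrophages, down to -0.10, and in 2 of 15 by number in TCs. The levels of FBs over epithelial cells, TCs and DCs and macrophages kept their direction under 3 of 3 alternatives. By treatment, 0 members were called in every class under each alternative run. Over all genes, DESeq2 called 3 genes by treatment in TCs, 7 in DCs and macrophages, 2 in epithelial cells and 8 in all cells. Without a filter on low counts 42 were called in TCs and 109 in DCs and macrophages, and without the highest doublet scores 2 in the latter. In libraries numbered 1 and 2 alone 2 were called in FBs, 1 in TCs and 8 in DCs and macrophages, and in those numbered 3 and 4 alone 4 and 1 in TCs and in DCs and macrophages. The members' median was then 0.14 in TCs and 0.10 in epithelial cells. Leaving out 1 library gave 0 to 2 calls in TCs and 0 to 1 in DCs and macrophages.

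With the library number as a replicate block, 5 genes were called by treatment in TCs, 6 in DCs and macrophages and 0 in FBs, epithelial cells and all cells, and the members' medians were 0.50 in FBs, 0.37 in TCs, 0.04 in DCs and macrophages, 0.30 in epithelial cells and 0.46 in all cells. With numbers 1 and 2 against 3 and 4 as a covariate, 5 and 4 were called in TCs and in DCs and macrophages. In FBs, DCs and macrophages and epithelial cells the numbers were not treated as pairs, since not all correlations of equal numbers were above 0.1. They were 0.18, -0.02, 0.06 and 0.21 in FBs and 0.32, 0.09, 0.28 and 0.28 in DCs and macrophages. In epithelial cells they were 0.24, 0.01, -0.04 and 0.42.

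By library number, DESeq2 called 154 genes in FBs, 92 in DCs and macrophages, 190 in epithelial cells and 2390 in all cells, against 49, 61, 13 and 1484 with edgeR. Without a filter on low counts 464 were called in FBs, 289 in TCs (97 with it), 444 in DCs and macrophages, 659 in epithelial cells and 3041 in all cells. Removing the highest doublet scores gave 31 in DCs and macrophages and 22 in epithelial cells, and a mitochondrial limit of 10% gave 201 in epithelial cells and 2512 in all cells. In PBMCsec libraries alone 4, 20, 25, 0 and 2 were called in FBs, TCs, DCs and macrophages, epithelial cells and all cells, and in vehicle libraries alone 96 in FBs, 26 in DCs and macrophages, 84 in epithelial cells and 766 in all cells. Leaving out 1 library gave 9 to 64 in FBs, 51 to 159 in TCs, 15 to 102 in DCs and macrophages, 2 to 153 in epithelial cells and 271 to 1972 in all cells.

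Of the 10 members, 4 were called by number in FBs, 6 with DESeq2 and 5 without the low-count filter. The count in FBs was 2 under a mitochondrial limit of 10%, 0 within either treatment alone and 0 to 2 without 1 library. In all cells 5 were called, 7 with DESeq2 and 7 without the low-count filter. There it was 4 under a mitochondrial limit of 10%, 0 within either treatment alone and 2 to 4 without 1 library. In epithelial cells 1 was called with DESeq2, without the low-count filter and without the highest doublet scores, and 0 to 1 without 1 library. In TCs and in DCs and macrophages 1 was called without the low-count filter. The members' median by number in TCs was -0.49 in PBMCsec alone, 0.12 in vehicle alone and -0.40 to 0.059 without 1 library, and in epithelial cells -0.76 in PBMCsec alone. Fits within 1 treatment or 1 pair of numbers hold 4 libraries. The causes of these changes were not tested. Depth limits vehicle libraries 1 and 2 most, with 28 and 21 FBs.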
